A study of Mus musculus with 8 samples.

Results

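H3K27me3, the histone mark placed by Polycomb repressive complex PRC2, was examined at 10 Sox genes in mouse neural stem cells (NSCs) that differ in Smchd1. The genes were Sox1 and Sox2 (subgroup SoxB1), Sox8, Sox9 and Sox10 (SoxE), Sox7, Sox17 and Sox18 (SoxF), and, as other members, Sox14 and Sox21. Members of the data set were the H3K27me3 regions that overlapped the body of one of these genes or the 5 kb on either side of it, on GRCm38 with GENCODE mouse release 21. The rule found 7 of the 13585 regions, 1 each for Sox1, Sox10, Sox7, Sox17, Sox18, Sox14 and Sox21, and no region for Sox2, Sox8 or Sox9.

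The cells were primary NSC lines from the cortices of female C57BL/6J embryos at E14.5, and both genotypes carried a GFP tag on endogenous Smchd1. WT cells were Smchd1GFP+/+ and mutant cells were Smchd1GFPMommeD43/MommeD43, homozygous for the missense allele MommeD43 of the chromatin silencer SMCHD1. Chromatin immunoprecipitation and sequencing (ChIP-seq) was performed on 3 independent lines per genotype, with 1 whole cell extract (WCE) library per genotype, 8 samples in 4 groups. The deposited table gives 1 column per genotype, the authors' mean of log2 read counts scaled to library size, so no difference below has a replicate SD or a test, and none can be compared with the spread between cell lines.

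Sox genes encode transcription factors that share the HMG box, a DNA-binding domain that bends DNA, and are grouped by the likeness of their proteins. SoxB1 factors maintain neural progenitors, and SOX14 and SOX21 form the related SoxB2 group, which opposes them. SoxE factors direct glial and neural crest fates, with SOX9 expressed in neural stem cells and SOX10 in oligodendrocyte and neural crest lineages, and SoxF factors act in endoderm and in blood and lymphatic vessels. Polycomb complexes typically keep such developmental regulators silent outside their own lineages, and H3K27me3 gathers at CpG-rich gene starts.

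The sequences around gene starts are given for 4 members that show the contrast in the mark. All lie on GRCm38.p6, run 5′ to 3′ along the gene's own strand from 250 bases before the RefSeq start to 50 bases after it, and have CG dinucleotides in capitals. The starts of Sox1 (plus strand, chr8:12395269-12395568) and Sox14 (minus strand, chr9:99876121-99876420) lay inside H3K27me3 regions, and those of Sox2 (plus strand, chr3:34649745-34650044) and Sox21 (minus strand, chr14:118236981-118237280) lay in none.
Sox1: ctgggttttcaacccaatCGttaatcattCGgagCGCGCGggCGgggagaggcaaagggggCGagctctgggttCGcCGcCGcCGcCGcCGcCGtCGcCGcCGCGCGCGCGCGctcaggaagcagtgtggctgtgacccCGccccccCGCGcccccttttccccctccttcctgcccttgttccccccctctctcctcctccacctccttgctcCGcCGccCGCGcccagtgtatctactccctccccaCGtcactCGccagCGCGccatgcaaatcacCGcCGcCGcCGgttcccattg
Sox14: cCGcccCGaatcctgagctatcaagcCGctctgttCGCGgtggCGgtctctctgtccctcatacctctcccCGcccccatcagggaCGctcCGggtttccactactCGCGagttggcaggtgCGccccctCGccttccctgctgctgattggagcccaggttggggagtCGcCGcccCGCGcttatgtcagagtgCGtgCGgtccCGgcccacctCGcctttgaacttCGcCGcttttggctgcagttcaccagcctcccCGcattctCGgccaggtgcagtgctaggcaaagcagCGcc
Sox2: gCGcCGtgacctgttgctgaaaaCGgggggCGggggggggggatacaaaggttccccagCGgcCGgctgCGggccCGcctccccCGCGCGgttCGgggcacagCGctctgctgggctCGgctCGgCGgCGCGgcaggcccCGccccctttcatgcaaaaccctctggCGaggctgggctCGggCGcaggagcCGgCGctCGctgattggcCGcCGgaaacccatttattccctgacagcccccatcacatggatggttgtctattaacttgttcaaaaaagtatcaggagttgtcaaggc
Sox21: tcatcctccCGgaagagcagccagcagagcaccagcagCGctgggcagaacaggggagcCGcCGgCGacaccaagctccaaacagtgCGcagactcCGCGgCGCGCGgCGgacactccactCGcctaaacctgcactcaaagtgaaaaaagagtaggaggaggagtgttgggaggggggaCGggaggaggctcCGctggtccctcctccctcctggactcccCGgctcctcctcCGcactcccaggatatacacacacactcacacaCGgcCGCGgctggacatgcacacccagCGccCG

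These windows held 37 CG dinucleotides at Sox1, 26 at Sox14, 27 at Sox2 and 22 at Sox21. The dinucleotide CG reads the same on both strands and occurs in 94.6% of the 32851 RefSeq promoter windows of this length, with a median of 7 per window. At least as many as at Sox1 occur in 5.58% of the windows, and at least as many as at Sox21 in 23.1%. The Sox8 window, also outside any region, held 21. RefSeq windows were thus matched for 5 of the 10 members. Those for Sox7, Sox9, Sox10, Sox17 and Sox18 were not.

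A wider window around the GENCODE start, 500 bases on either side, was read for all 10 genes. It held 97 CG dinucleotides at Sox2, 84 at Sox1, 82 at Sox7, 76 at Sox9 and at Sox21, 75 at Sox8 and at Sox18, 56 at Sox14 and 52 at Sox17. The median over 21755 protein-coding starts was 41. Sox10 had 13, the lowest of the 10, although its start lay inside a region. Neither the 3 members without a region nor Sox21 had CpG-poor starts, and CG counts did not separate them from the others.

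Where the regions lay differed between members. A region held the gene's start for 6 of the 10 members, against 29.9% of all protein-coding genes. The members were chosen with earlier results of these data known, so this contrast is not a test of enrichment. Of the 10 other genes of the Sox family, 2 had their start in a region. All 3 SoxF genes were among the 6 members, with 1 of the 2 SoxB1 genes, 1 of the 3 SoxE genes and 1 of the 2 others. These regions were each built around peaks called in either genotype, widened by 2.5 kb on both sides and joined when close, so a missing region means that no peak was called nearby and not that the mark was 0.

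**Figure D1:**
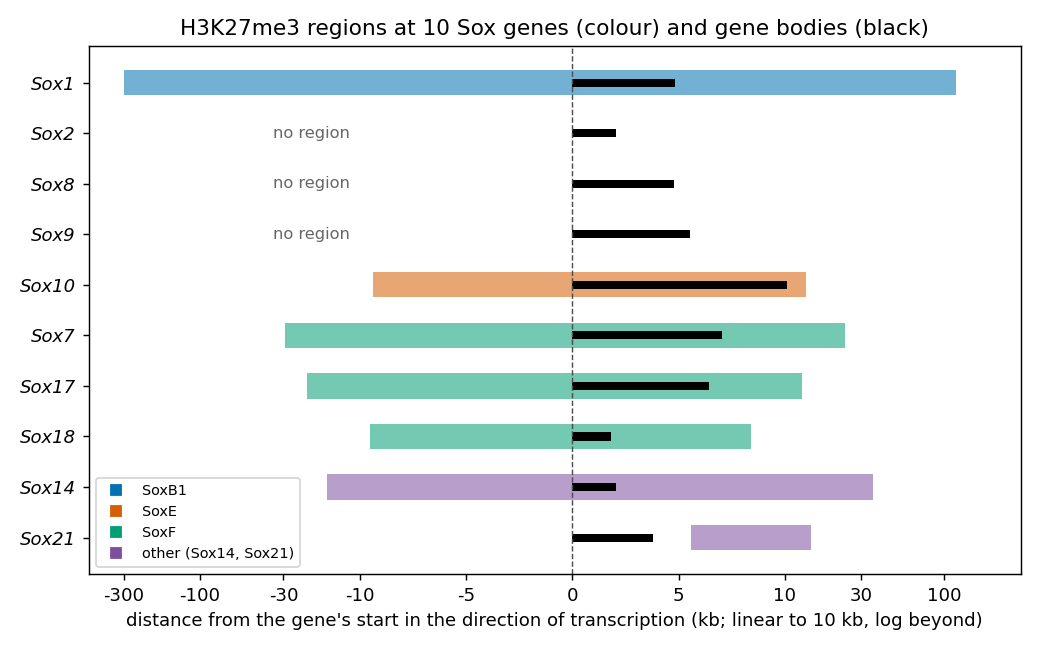
Regions of H3K27me3 (coloured bars) and gene bodies (black bars) at the 10 Sox genes, with distance from the GENCODE gene start on the horizontal axis in kb, linear up to 10 kb and logarithmic beyond. The Sox1 region reached 300.9 kb upstream of the start, 6 regions held the start, the Sox21 region began past the end of the gene, and Sox2, Sox8 and Sox9 had no region.

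In SoxB1, the Sox1 region at chr8:12094401-12513850 was 419 kb long, rank 11 in length among all regions. It ran from 301 kb upstream of the Sox1 start to 119 kb downstream. The single-exon Sox1 gene took up 1.15% of it. It also held the start of A230072I06Rik and those of 8 other annotated genes not classed as protein-coding, Sox1ot among them. Its value therefore speaks for a broad domain and not for Sox1 alone.

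Sox2, the other SoxB1 member and a regulator of neural stem cell self-renewal, was 449255 bp from the nearest region, chr3:34194051-34201150, which overlapped no protein-coding gene. That region was weak, at 7.93 in WT and 8.33 in MommeD43 on the log2 scale of normalized counts. Within 1 Mb of Sox2 there were 8 regions.

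In SoxE, the region of Sox10, chr15:79151601-79174600, spanned 23 kb, from 9.36 kb upstream of the start to 13.6 kb downstream. It contained the whole gene, which has 3 to 5 exons in its coding transcripts, and part of the neighbouring Polr2f. Its GC content of 55.8% put it at rank 67 of all regions.

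Sox8 lay 53642 bp from its nearest region, chr17:25418451-25512250, a strong one of 93.8 kb over Cacna1h, Sstr5 and Tekt4. This region had 13.28 in WT and 13.10 in MommeD43, a difference of -0.18. Sox9 was 403341 bp from its nearest region, chr11:113191101-113198050, which overlapped no protein-coding gene and had 7.93 in WT and 8.01 in MommeD43. Within 1 Mb, Sox8 had 26 regions and Sox9 had 6. The 3 members without a region thus differed in setting, since Sox8 sat among many regions and Sox2 and Sox9 among few.

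In SoxF, each gene had a region over its start. That of Sox7, chr14:63914451-63967450, was 53 kb long and also overlapped Pinx1. That of Sox17, chr1:4484601-4518700, was 34.1 kb long and overlapped no other protein-coding gene. That of Sox18, chr2:181663251-181681150, was 17.9 kb long and also held the start of Tcea2.

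Of the other members, Sox14 had a region of 51.8 kb, chr9:99840351-99892150, with no other protein-coding gene in it. The Sox21 region, chr14:118222551-118231450, was 8.9 kb long and touched neither the start nor the body of the gene. It began 1782 bp past the 3′ end of Sox21 and 5580 bp from its start, and overlapped no annotated protein-coding gene. These distances run to an edge widened by 2.5 kb, so the called peak lay farther from Sox21.

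In both genotypes the Sox regions were among the stronger ones, except that of Sox21. The values are log2 normalized counts for the whole region, and long regions gather more reads. Sox1 had 14.86 in WT and 15.14 in MommeD43. Sox14 had 13.75 in WT and 14.18 in MommeD43. These were ranks 59 and 213 of 13585 in WT.

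Sox7 had 12.31 in WT and 13.18 in MommeD43, and Sox17 had 12.25 and 12.45 in the same order. Sox18 had 11.53 in WT and 12.06 in MommeD43. Sox10 had 10.51 in WT and 11.22 in MommeD43. The Sox21 region was the weakest, with 7.82 in WT and 8.49 in MommeD43, close to the medians of all regions, 8.35 and 8.42.

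Divided by length the order changed. Length includes the 2.5 kb added on both sides of peaks, which weighs more in short regions. Counts per kb therefore do not fully separate how dense the mark was from how far it reached. Sox14 was densest, with 266 normalized counts per kb in WT and 358 in MommeD43, rank 67 in WT and rank 47 in MommeD43. Sox18 followed with 165 in WT and 239 in MommeD43, and Sox17 with 143 in WT. The long Sox1 region had 71.02 in WT and 86.1 in MommeD43, so its high total came with a density below those of all SoxF regions.

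Sox7 had 95.5 normalized counts per kb in WT and 175 in MommeD43. By this measure it was below Sox17 in WT and above it in MommeD43, where Sox17 had 164. Sox10 had 63.4 in WT and 104 in MommeD43, below Sox1 in WT and above it in MommeD43. Sox21 had 25.5 in WT and 40.5 in MommeD43, against medians over all regions of 33.7 and 34.7.

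**Figure D2:**
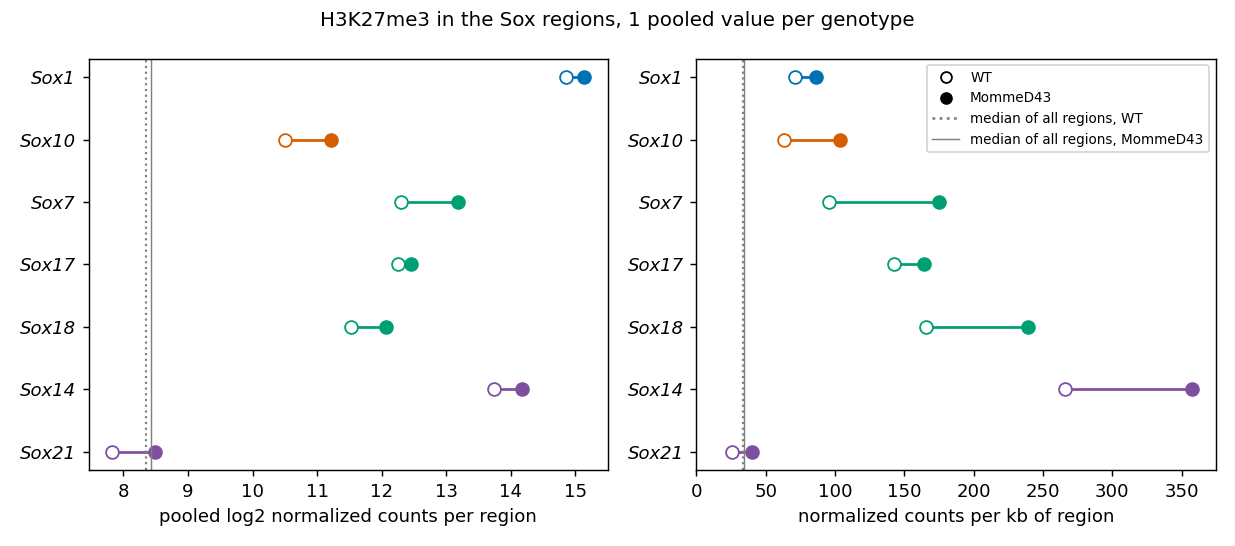
H3K27me3 in the 7 Sox regions, as pooled log2 normalized counts per region (left) and as normalized counts per kb of region (right), with 1 open point for WT and 1 filled point for MommeD43 and no error bar because the deposited columns are means. Every filled point lies to the right of its open point, and the grey lines mark the medians of all regions, 8.35 and 8.42 on the left.

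The comparison of genotypes set the pooled values of the 2 columns against each other at these genes. The paper calls ChIP-seq ill-suited for comparing amounts of a histone mark, and it turned to immunofluorescence. That staining gave a modest decrease of H3K27me3 in MommeD43 NSCs, on the inactive X chromosome and over the whole nucleus. The values here are scaled to library size and do not measure a gain or loss in the amount of the mark. With the authors' scaling, all 7 Sox regions had the higher value in MommeD43, where 60.2% of all regions did. Their median difference, MommeD43 minus WT, was 0.53 on the log2 scale, against 0.11 over all regions and 0.08 over autosomal regions. Under the other scalings tried, given below, the median of the 7 was between 0.17 and 0.53. With the authors' scaling, none of the 7 reached a difference of 1, which 9.12% of all regions did in either direction.

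A smallest counting error was computed for each difference from the reads recovered for each region, and it does not include variation between the lines. Reads per library, as geometric means, ran from 69.3 at Sox21 to 9113 at Sox1 in WT and from 137 to 13709 in MommeD43. All 7 differences lay above 0 outside the 95% counting interval, as did those of 40.9% of all regions. Except for Sox21 in WT, the Sox regions held more reads than the median region, which had 100.1 in WT and 129.96 in MommeD43, and more reads make this interval narrower.

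As deposited, SoxF held both the largest and the smallest difference of the 7. Sox7, which acts in endoderm and vessels, had a difference of 0.87 with a smallest counting error of 0.03, a 1.83-fold higher count in MommeD43. Sox18, which acts in lymphatic vessel formation, had 0.53 with an error of 0.03. Sox17, which acts in definitive endoderm, had 0.20 with an error of 0.03. The gap between Sox7 and Sox17 was 0.67 with a counting error of 0.04, and no common scaling factor can alter it. With the GC trend removed the gap was 0.17.

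The only SoxE region, at Sox10, had a difference of 0.71 with an error of 0.05, a 1.63-fold higher count. The only SoxB1 region, at Sox1, had 0.28 with an error of 0.01. Sox14 had 0.43 with an error of 0.02, and Sox21 had 0.67 with an error of 0.12. The Sox21 value rested on few reads, and its interval of 0.43 to 0.91 covered the differences of Sox10, Sox7, Sox18 and Sox14.

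Of the 21 pairs of Sox regions, 17 differed in their genotype difference by more than the counting interval. The 4 pairs that did not were those of Sox21, the region with the fewest reads, with Sox10, Sox7, Sox18 and Sox14. The interval narrows with reads and holds no variation between lines. The share among pairs of all regions was not computed, so the count is not a trait of the Sox regions. As deposited, the 3 SoxF regions spanned the whole range, and SoxB1 and SoxE had 1 region each. With the GC trend removed Sox1 was lowest, at 0.12.

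The sign depended on scaling for Sox17 and Sox1. When the totals of all regions were set equal in both genotypes, which lowers every difference by 0.24, 6 of the 7 stayed higher and Sox17 went to -0.04, with 37.1% of all regions higher. When the trend of the difference with the mean value was removed, 5 stayed higher, with 50.1% of all regions higher, while Sox1 went to -0.04 and Sox17 to -0.08. Sox7, Sox10, Sox18, Sox14 and Sox21 were higher in MommeD43 under all scalings tried, although Sox18 was at 0.013 with trends of both GC content and read density removed.

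**Figure D3:**
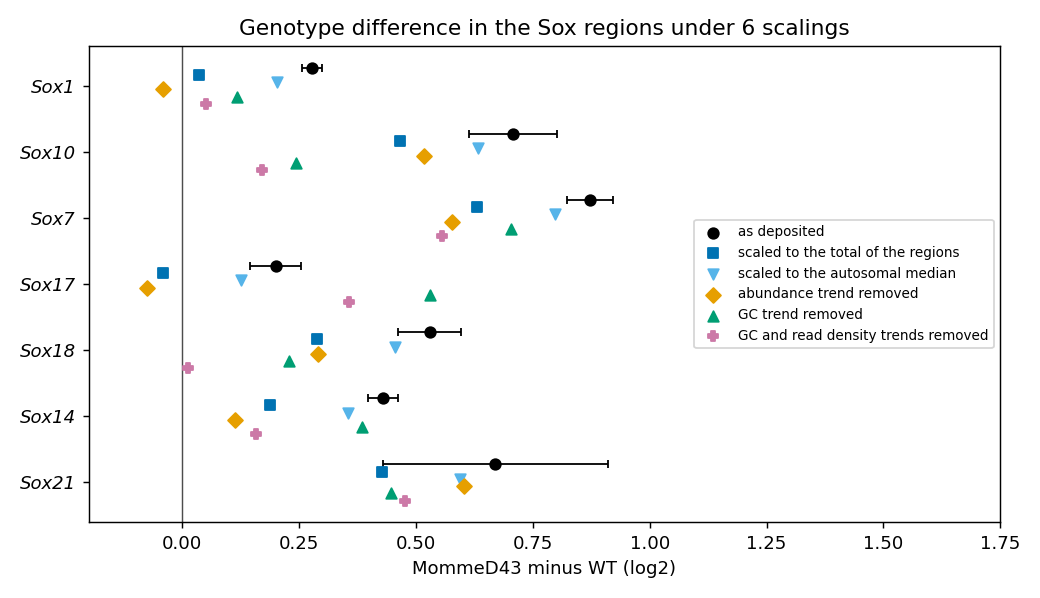
Difference in H3K27me3 between genotypes, MommeD43 minus WT on the log2 scale, for the 7 Sox regions as deposited (black, with bars for the 95% counting interval, which holds no variation between lines) and under 5 other scalings. Sox7 stays at or above 0.56 in each, whereas Sox17 ranges from -0.08 to 0.53.

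Base composition moved with the difference across the table. Over 11707 autosomal regions, which are not replicates, Spearman's rho between the difference and GC content was 0.583, and its part in the Sox values was not tested. Removing this trend changed the order of the members. Sox17, whose region had a GC content of 41.5%, the lowest of the 7, had 0.53 after removal and moved from the smallest difference to the second largest. Sox10 moved the other way, from 0.71 to 0.24.

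Sox7 remained the largest at 0.70, Sox21 had 0.45, Sox14 had 0.38, Sox18 had 0.23 and Sox1 had 0.12. All 7 were above 0 with the GC trend removed, where 55.9% of all regions were. The range within SoxF was then 0.23 at Sox18 to 0.70 at Sox7.

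**Figure D4:**
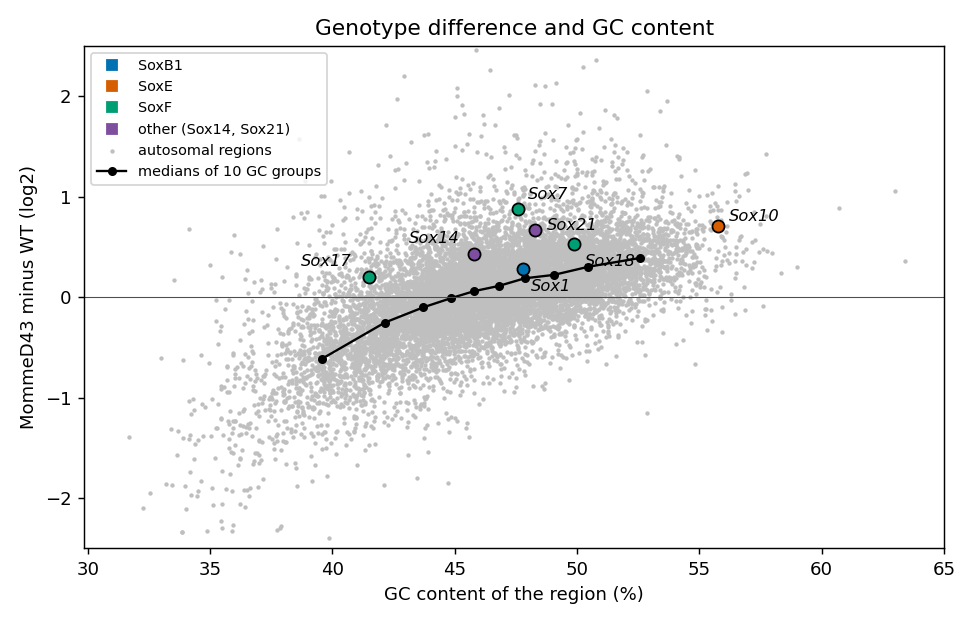
Difference between genotypes, MommeD43 minus WT on the log2 scale, against the GC content of the region in percent, for autosomal regions (grey), the medians of 10 equally filled GC groups (black line) and the 7 Sox regions (coloured by subgroup). The black line climbs from -0.61 to 0.39, each Sox point lies above its level at the nearest GC content, and 25 of the 11707 autosomal regions fall outside the vertical range shown.

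The Sox regions were also set against the other regions within 1 Mb of them, a comparison in which any factor common to the whole table cancels. Each of the 7 was above the median of its neighbours, where 49.7% of all regions with at least 5 neighbours were. Sox10, at 0.71, exceeded all of its 36 neighbours, whose highest was 0.57 and whose median was 0.18. Sox7, at 0.87, exceeded all of its 13 neighbours, whose highest was 0.42. Sox21, at 0.67, exceeded all of its 11 neighbours, whose highest was also 0.42. Of all regions with at least 5 neighbours, 5.45% exceeded every one of them.

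Around Sox17 the 5 neighbours had a median of -0.61, with 1 of them above 0. That neighbour, at 0.95, was also above the Sox17 region. The Sox17 region, at 0.20, was 0.81 above the median of these neighbours. With the GC trend removed that median was -0.05 and the Sox17 region was 0.58 above it. Sox1 was nearest to its neighbours, 0.11 above the median of 36. Sox18 was 0.26 above the median of 7 neighbours, and Sox14 was 0.38 above the median of 19. With the GC trend removed all 7 were still above their neighbours' median, as were 50% of all regions with at least 5 neighbours, and Sox7 and Sox21 above every neighbour, as were 5.54% of all such regions. With the abundance trend removed 6 were above the median, beside 49.7% of all such regions, and Sox1 was at -0.09 relative to it.

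**Figure D5:**
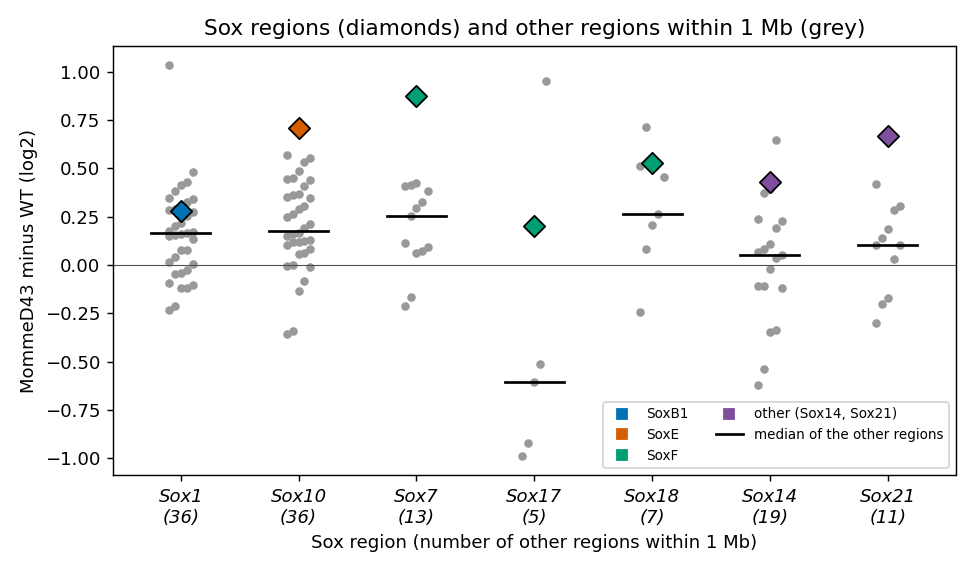
Difference between genotypes, MommeD43 minus WT on the log2 scale, for the 7 Sox regions (diamonds coloured by subgroup) and the other regions within 1 Mb of each (grey points, their number in brackets), with black bars for the medians of the grey points. The Sox10, Sox7 and Sox21 diamonds lie above all of their neighbours, and the Sox17 diamond lies 0.81 above a median of -0.61 but below its highest neighbour.

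The remaining genes of the family were counted by the same rule. Of these 10 genes, Sox3, Sox13 and Sox30 had 4 regions between them, and 2 had their start in one, beside 29.9% of all protein-coding genes. Sox4, Sox11 and Sox12 of the SoxC subgroup, which acts in differentiating neurons, had none. Nor did Sox5, Sox6 and Sox15, or the Y-linked Sry, and no region of the table lay on the Y chromosome.

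The region of Sox3, the X-linked SoxB1 gene, at chrX:60884901-60929650, held 9.40 in WT and 10.31 in MommeD43, a difference of 0.91 with a counting error of 0.07, beside a median of 0.49 over X-linked regions. Its density of 15.1 normalized counts per kb in WT was low, below that of every member region. Sox30, expressed in the testis, had 2 regions with the opposite sign. The one over its start, chr11:45969501-45992200, had 10.03 in WT and 9.51 in MommeD43, a difference of -0.52 and an error of 0.07. The other, at chr11:45998001-46003750 inside the gene, had a difference of -0.97 and an error of 0.21. Removal of the GC trend brought these to -0.20 and -0.29.

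The Sox13 region, chr1:133267851-133381150, lay 1153 bp past the end of that gene, measured to its widened edge. It held the starts of Kiss1, Ren1 and Etnk2, and differed by 0.17. With the totals set equal it was at -0.07.

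Genes known to mark neural stem cells were examined for the mark, which does not measure expression. Of 10 such genes, Sox2, Sox9, Vim and Fabp7 had no region, and Slc1a3 had one only past its end. The other 5, Nes, Pax6, Hes1, Hes5 and Msi1, had their start in one, beside 29.9% of all protein-coding genes. The start of Hes5 lay 127 bp and that of Nes 872 bp inside the edge of the region, within the 2.5 kb by which peaks had been widened.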

How the data were processed

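H3K27me3 ChIP-seq was performed in 3 WT and 3 MommeD43 NSC lines, with 1 WCE library per genotype. The labels describe micrococcal nuclease digestion and the study's methods describe shearing. The authors trimmed reads with Trim Galore 0.4.4, aligned them with Bowtie2 2.3.4.1 to GRCm38.p6 and, in SeqMonk, called peaks per genotype on merged replicates and counted extended reads. The deposited values are log2 counts per region, scaled by the authors to library size and averaged per genotype, with WCE not subtracted. Single libraries and WCE were not analysed here.

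The members and gene lists were chosen with earlier results of these data known. All 10 members and the other Sox genes were named. The search for regions most like that of Sox2 could not be applied, as Sox2 has none. The comparison with neighbours was added after the values were seen. GC content came from GRCm38.p6, with 0 regions past a chromosome end, and genes from GENCODE mouse release 21. Ranks count from the highest value.

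A pooled log2 value multiplied by 3 is the log2 of a product of 3 counts, up to a constant. For products below 30000, whole numbers were met (tolerance 0.1) by 99.9% of the WT values and 99.6% of those of MommeD43, where 20% would be met by chance. Each read then stood for 3.27 normalized counts (WT) or 2.63 (MommeD43). Counting errors assume Poisson counts spread evenly over 3 libraries and cover counting error only. Trends were running medians over 40 bins, fitted on autosomal regions for GC content and read density. Scalings to the region total and to the autosomal median, both trends, a pseudocount of 10, other flanks and a minimum of 50 reads were tried. Computations ran in Python 3.11.15 with matplotlib 3.10.9, numpy 2.4.6, scipy 1.17.1 and pandas 2.3.3.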

Additional observations from a re-analysis of the deposited data

How the results depend on the processing

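No paired analysis was possible because the table has 1 pooled column per genotype. For the same reason no replicate was left out and no replicate block was fitted. Values were set against the 95% counting interval, which holds no variation between cell lines. When the totals of the regions were set equal, the median difference of the 7 Sox regions went from 0.53 to 0.29, that of SoxF from 0.53 to 0.29, SoxB1 (Sox1 alone) from 0.28 to 0.036, SoxE (Sox10 alone) from 0.71 to 0.47, and Sox14 and Sox21 together from 0.55 to 0.31. Scaling to the autosomal median gave 0.45 for all 7, 0.45 for SoxF and 0.20 for SoxB1. Removal of the abundance trend gave 0.29 for all 7, 0.29 for SoxF, 0.52 for SoxE and 0.36 for Sox14 and Sox21, and reversed SoxB1 to -0.041. Removal of the GC trend gave 0.38 for all 7, 0.12 for SoxB1 and 0.24 for SoxE. A further removal of the read density trend, added after the data were seen, gave 0.17 for all 7. Sox17 reversed to -0.042 with equal totals and to -0.076 without the abundance trend. A common scaling shifts all regions alike by construction, and for the trends the cause was not tested. The single regions gave 42 values under 6 scalings: 12 inside the counting interval, 27 outside it with the sign kept, and 3 with the sign reversed. None of the 7 member regions passed a difference of 1 under any alternative tried. A flank of 10 kb added 0 regions, and no flank left out the Sox21 region. Depth limits Sox21 most, with a counting error of 0.12.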
